A study of Rattus norvegicus with 6 samples.

Results

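The genes described here are 40 genes of the adaptive and antiviral immune system, measured in the mesenterial fat of newborn rats. They were chosen by name, with earlier results of these data known, as genes of T and B cells (17), of the major histocompatibility complex (MHC) and antigen processing (10) and of the interferon response (13). A probe set, the group of array probes that reports a transcript, counted for a gene when the platform annotation gave it that symbol alone. In this way 37 of the 40 genes had a probe set, of 14217 genes on the array, with 57 probe sets in all. Cd79a, Rag1 and Ikzf1 had none and are not analysed here.

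T cells carry the CD3 complex beside their antigen receptor and pass its signal on through the kinases Lck and Zap70 and the adaptor Lat, while B cells use Cd79a, Cd79b and the adaptor Blnk. MHC class II molecules, which the rat genome names RT1-B and RT1-D, show peptides to T cells and are made mainly by B cells, dendritic cells and macrophages. Class I molecules need B2m and the peptide transporter Tap1-Tap2 and are made by nearly all cells. Type I interferon acts through Stat2 and Irf9 and switches on antiviral genes such as Mx1, Ifit2 and Ddx60. Fat of the gut mesentery normally holds immune cells, and lymph nodes lie within it.

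The deficient group held 3 arrays of newborns whose dams were fed a diet with 0 IU of vitamin D per kg. The adequate group held 3 arrays of newborns whose dams received 1000 IU per kg. All newborns were wildtype Sprague-Dawley rats, an outbred stock, so the diet of the dam was the only labelled difference. The labels give no litter, sex or number of animals for an array, so p-values may measure no more than the spread between these RNA samples.

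In the deficient group, arrays 1 and 2 differed from array 3 and from the adequate arrays in their control signals. Their bacterial hybridisation controls, RNAs spiked in at a fixed amount, read 7.19 and 10.1 times the adequate mean, whereas the controls of deficient array 3 read 0.960 times that mean. For beta-actin, the ratio of 3' to 5' probe sets, which grows when RNA is degraded or labelled incompletely, was 7.56, 6.80 and 2.35 on deficient arrays 1 to 3, and 2.39, 4.81 and 2.58 on adequate arrays 1 to 3. Median signals ranged from 154.8 to 165.9 over the 6 arrays. Xist, transcribed in female cells, and the Y-linked gene Eif2s3y were both bright on every deficient array and on adequate array 2, with log2 signals of 11.74 or more and 10.77 or more. Adequate array 1 showed Xist (12.89) with Eif2s3y at 3.20, and adequate array 3 showed Eif2s3y (11.66) with Xist at -1.15. The fat cell markers Fabp4 and Lpl read at least 10.63 and 9.91 in log2 signal on all 6 arrays, whereas Adipoq, Plin1, Plin4, Cidec, Pparg and Gpd1 were too dim to test. Of 15 fat cell markers 9 were tested, and their summed signal ranged from 5541 to 7751 in the deficient group and from 6273 to 6992 in the adequate group. Markers of intestinal epithelium and of hepatocytes summed highest on adequate array 3, at 4130 and 6506, against at most 1408 and 3085 on the other arrays. The hybridisation controls and the beta-actin ratio were entered as covariates in alternative fits. Whether these differences between arrays caused those in the genes below was not tested. The block medians and most genes given with a fit are therefore also described for deficient array 3 alone and without it.

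Of the 37 genes, 28 had a probe set bright enough to test, meaning a mean log2 signal over all 6 arrays of at least 6.46, the 40th percentile of the array. The brightest tested probe set stood for its gene. No gene passed: with limma and Benjamini-Hochberg adjustment over 18625 probe sets, 0 had an adjusted p under 0.05 (0% in either direction). At an unadjusted p under 0.05, 1524 probe sets were lower in the deficient group (8.18%) and 1123 were higher (6.03%). Among the 28 genes, 5 of 11 were lower in the T and B cell block and 3 of 9 in the MHC block. In the interferon block 0 of 8 were lower, and none was higher in any block. Counts here and below include Cd3e, Mx1 and Mx2, which passed the filter although 1 of their group means lay under it. The mean was below the adequate mean for 10, 5 and 3 genes of these blocks, where 55.3% of all tested probe sets had a log2 change below 0. The median log2 change, deficient minus adequate, was -0.64 in the T and B cell block, -0.07 in the MHC block and 0.21 in the interferon block, beside -0.05 over all tested probe sets.

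The blocks followed the arrays in different ways. The median of the T and B cell genes, in log2 signal relative to each gene's adequate mean, was -0.82, -1.02 and -0.18 on deficient arrays 1 to 3, against 0.26, -0.53 and 0.25 on adequate arrays 1 to 3. These genes were thus low on deficient arrays 1 and 2 and on adequate array 2, and the groups overlapped. The MHC block had -0.28, -0.40 and -0.13 on the deficient arrays, against 0.29, -0.26 and 0.02 on the adequate arrays. The interferon block ran the other way on the first deficient arrays, with 0.55, 0.16 and -0.11, against 0.07, -0.07 and 0.01 on the adequate arrays. Deficient arrays 1 and 2 both lay below the other 4 arrays for 5 of 11 T and B cell genes, 4 of 9 MHC genes and 1 of 8 interferon genes, where 26.0% of all tested probe sets did so. They both lay above the other 4 for 0, 1 and 4 genes of these blocks, where 19.1% of all tested probe sets did. Deficient array 3 lay within the range of the adequate arrays for 9, 7 and 5 genes, where 45.6% of all tested probe sets had it there. No tested gene was higher in the deficient group without overlap, where 6.55% of all tested probe sets were.

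**Figure D1:**
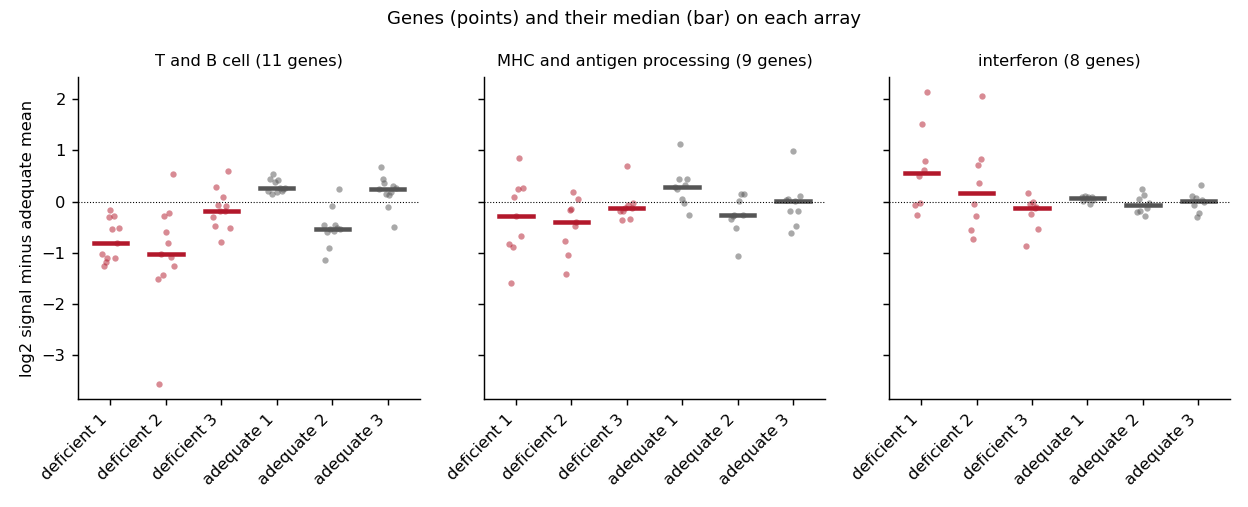
Log2 signal minus the mean of the adequate arrays (y axis) on each array (x axis), for the tested genes of each block (points) and their median (bar), with deficient arrays in red and adequate arrays in grey. The T and B cell bars are lowest on deficient arrays 1 and 2 (-0.82 and -1.02), the interferon bar is highest on deficient array 1 (0.55), and the bar of deficient array 3 lies between -0.18 and -0.11 in every panel.

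The genes of the CD3 complex had lower values in the deficient group, and their signals overlapped between the groups. Cd247, the zeta chain that carries the signal into the cell, read 6.65, 6.17 and 7.38 in log2 signal on the deficient arrays, against 7.88, 7.22 and 7.92 on the adequate arrays. Its log2 change was -0.94 ± 0.34 (SE, limma adjusted p 0.344). Deficient array 3 lay above adequate array 2 and the other deficient arrays lay below all adequate arrays. A second, dimmer tested probe set of Cd247 read 6.44, 6.38 and 6.44 on the deficient arrays, against 6.80, 6.21 and 7.08 on the adequate arrays. Cd3e, the epsilon chain, read 6.33, 4.01 and 7.10 on the deficient arrays, against 8.02, 6.44 and 8.26 on the adequate arrays, with a limma adjusted p of 0.344. Its deficient mean of 5.81 lies under the filter level, so no fold is given. Cd3d, the delta chain, read 6.53, 6.69 and 8.00 on the deficient arrays, against 7.85, 7.12 and 8.16 on the adequate arrays. Cd3g, the gamma chain, read 8.05, 7.72 and 9.09 on the deficient arrays, against 9.70, 8.23 and 9.51 on the adequate arrays. The order was alike in the 4 CD3 genes: deficient arrays 1 and 2 at the bottom, adequate array 2 next, and deficient array 3 with adequate arrays 1 and 3 on top.

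The signalling genes behind the receptor showed the same order in part. Lat, the adaptor that Zap70 phosphorylates, read 6.86, 6.87 and 7.87 in log2 signal on the deficient arrays, against 8.16, 7.44 and 8.26 on the adequate arrays, a log2 change of -0.76 ± 0.33 (SE, limma adjusted p 0.348). The T cell kinase Lck read 8.72, 8.45 and 9.34 on the deficient arrays, against 9.69, 8.70 and 9.40 on the adequate arrays. Zap70 read 7.33, 7.37 and 7.42 on the deficient arrays, against 7.87, 7.14 and 7.79 on the adequate arrays. For Lck adequate array 2 lay between deficient arrays 1 and 2, and for Zap70 it was the lowest of the 6 arrays. An untested, dimmer probe set of Zap70 read 3.49, 3.88 and 6.28 on the deficient arrays, against 6.93, 6.41 and 7.03 on the adequate arrays, without overlap. Adequate array 2 was the lowest adequate array for 9 of the 11 T and B cell genes, where 36.0% of all tested probe sets had it lowest.

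Coreceptor and cytokine receptor genes were less uniform. Cd8a, the coreceptor of cytotoxic T cells, read 8.00, 8.03 and 8.12 on the deficient arrays, against 8.68, 7.77 and 8.46 on the adequate arrays. The other tested probe sets of Cd8a disagreed with each other. One had a log2 change of -0.98 ± 0.46 (SE), and the other read 6.92, 6.86 and 6.37 on the deficient arrays, against 6.69, 5.96 and 6.28 on the adequate arrays, an adequate mean under the filter level. Il2rg, the receptor chain shared by several interleukins, read 9.24, 8.49 and 9.24 on the deficient arrays, against 10.01, 9.22 and 10.03 on the adequate arrays. Its log2 change was -0.76 ± 0.27 (SE, limma adjusted p 0.344), and only adequate array 2 fell within the deficient range. Il7r, the receptor that keeps naive T cells and early lymphocytes alive, was the only tested gene of the block with a higher mean in the deficient group, at 7.01, 8.37 and 8.41 on the deficient arrays, against 8.08, 8.07 and 7.32 on the adequate arrays. Cd2 and Cd4 were too dim to test. Cd2 lay between 2.34 and 5.66 in log2 signal, and Cd4 read 6.27, 5.61 and 6.20 on the deficient arrays, against 5.84, 5.63 and 5.75 on the adequate arrays.

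The B cell side rested on a single gene. Blnk, the adaptor downstream of the B cell receptor, read 8.28, 7.86 and 7.67 on the deficient arrays, against 8.63, 8.37 and 8.35 on the adequate arrays. Its log2 change was -0.51 ± 0.22 (SE, limma adjusted p 0.344). It was the only gene of the block without overlap between the groups, where 10.8% of all tested probe sets lay lower without overlap, and unlike the CD3 genes it was lowest on deficient array 3. Its log2 change was -0.78 with deficient array 3 alone and -0.38 without it. Cd79b was dim on all arrays, between 4.05 and 6.04.

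Set against the adequate arrays alone, deficient array 3 had a median T and B cell log2 change of -0.18, and without deficient array 3 the median was -0.89. Without deficient array 3, limma called 5 of the 11 genes lower at an adjusted p under 0.05 (Cd247, Cd3e, Cd3d, Cd3g and Lat). In that comparison 10.7% of all tested probe sets were called lower. Cd3e is counted here although its mean over all deficient arrays, 5.81, lay under the filter level. It passed the filter only through the adequate group, so counts with Cd3e are not independent of the filter. The log2 changes without deficient array 3, and with it alone, were -1.26 and -0.30 for Cd247, -1.09 and -0.09 for Lat, and -0.89 and -0.51 for Il2rg. With the log2 hybridisation controls as a covariate the median was -0.12. With the beta-actin ratio as a covariate the median was -0.25. In bulk tissue, fewer lymphocytes and less of each transcript per lymphocyte cannot be told apart. Neither can be separated here from the differences between arrays in control signals and beta-actin ratio.

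**Figure D2:**
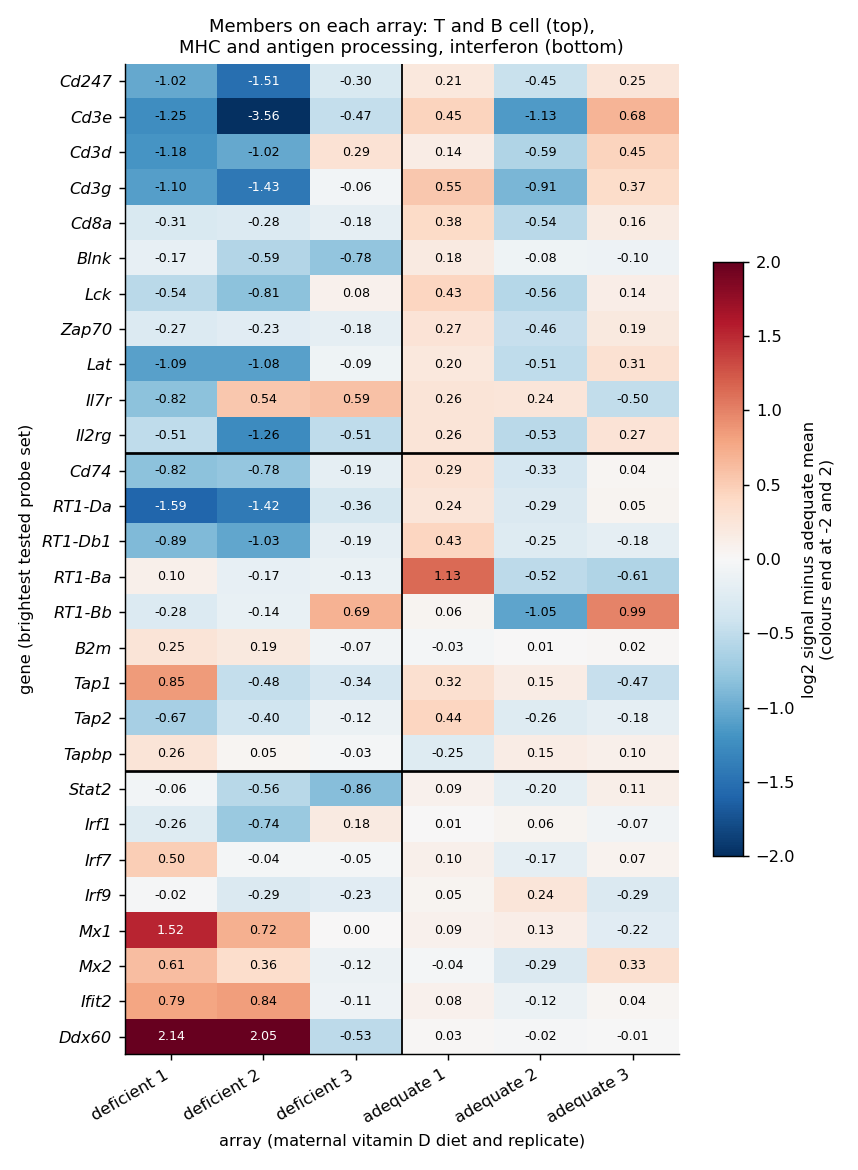
Log2 signal minus the adequate mean (colour and printed value) of the 28 tested genes (rows, by block) on each array (columns, deficient arrays on the left). The CD3 genes and Lat are blue on deficient arrays 1 and 2 and on adequate array 2. RT1-Da, RT1-Db1 and Cd74 are blue on deficient arrays 1 and 2, and paler blue on adequate array 2 (-0.29, -0.25 and -0.33). Mx1, Ifit2 and Ddx60 are red on deficient arrays 1 and 2, with Ddx60 at 2.14 and 2.05. Cd3e, Mx1 and Mx2 have a group mean under the filter level.

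Other genes of lymphocytes, 70 in a list of receptors, signalling proteins and transcription factors, included 36 that were tested. At an unadjusted p under 0.05, 7 of 36 were lower and 1 was higher, where 8.18% of all tested probe sets were lower and 6.03% higher. The median log2 change was -0.21, and none passed adjustment. Ptpn6, a phosphatase that damps receptor signals in blood cells, read 7.46, 7.49 and 7.49 on the deficient arrays, against 8.53, 8.11 and 8.29 on the adequate arrays, a log2 change of -0.83 ± 0.21 (SE, limma adjusted p 0.344). Cxcr4, a homing receptor of many cell types, had -0.72 ± 0.22, and the B cell coreceptor Cd22 had -0.65 ± 0.24 (SE, limma adjusted p 0.344 each). These 3 genes had the smallest unadjusted p of the 36, and were lower on each deficient array than on any adequate array. The latter held for 4 of the 36 genes and for 10.8% of all tested probe sets. Cxcr4 had 3 tested probe sets, of which the brightest is given. With deficient array 3 alone the log2 changes were -0.82 for Ptpn6, -0.32 for Cxcr4 and -0.56 for Cd22. Without deficient array 3 they were -0.84, -0.92 and -0.70.

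Markers of other cells that mesentery can hold were set beside the T cell genes. The summed signal of 6 T cell markers was 966, 768 and 1794 on the deficient arrays, against 2419, 1097 and 2291 on the adequate arrays. For macrophages, 13 of 14 markers were tested and the summed signal ranged from 11705 to 16175 in the deficient group and from 14976 to 18036 in the adequate group. For mast cells, 8 of 9 were tested and the ranges were 4694 to 7593 in the deficient group and 5812 to 8249 in the adequate group. For lymph node stroma and vessels, 6 of 9 were tested, with ranges of 4467 to 6324 in the deficient group and 5709 to 7417 in the adequate group. In each of these 3 lists the sums of deficient arrays 1 and 2 were the lowest of the 6 arrays. Adequate array 2 had the lowest adequate sum. Bright genes weigh most in such sums, and single markers did not all follow them. The macrophage markers Adgre1 and Fcgr1a were highest on deficient arrays 1 and 2, whereas Tyrobp and C1qc were lowest there. Natural killer markers, mostly too dim to test, summed otherwise. Their sums were 352, 255 and 293 on the deficient arrays, against 442, 206 and 213 on the adequate arrays. The lymph node chemokine Ccl19 read 8.53, 8.85 and 10.26 on the deficient arrays, against 10.32, 9.88 and 9.81 on the adequate arrays, so for this gene deficient arrays 1 and 2 were low and deficient array 3 was not. Ccl21, another of these chemokines, read 10.04, 9.28 and 9.87 on the deficient arrays, against 10.66, 10.09 and 10.71 on the adequate arrays, lower on all deficient arrays. Cxcl13, which draws B cells, had a log2 change of 0.08 ± 0.20 (SE, limma adjusted p 0.857). Of the natural killer and B cell markers only Klrd1 and Blnk were tested, and of the others the B cell marker Ms4a1 was at most 5.65 and the natural killer marker Klrb1c at most 2.96 on any array. The part of these cells in the T cell values was not tested.

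Within the MHC block, the class II genes RT1-Da, RT1-Db1 and Cd74 had lower values in the deficient group, and no class I pathway gene had an unadjusted p under 0.05. RT1-Da, the alpha chain of RT1-D, read 9.85, 10.02 and 11.09 on the deficient arrays, against 11.68, 11.16 and 11.49 on the adequate arrays. The groups did not overlap, and the log2 change was -1.12 ± 0.29 (SE), a fold of 0.459, with a limma adjusted p of 0.344. RT1-Db1, the beta chain of RT1-D, read 8.64, 8.49 and 9.34 on the deficient arrays, against 9.96, 9.27 and 9.35 on the adequate arrays, a log2 change of -0.70 ± 0.26 (SE, limma adjusted p 0.344). Cd74, the invariant chain that escorts class II molecules to the endosome, read 10.71, 10.76 and 11.35 on the deficient arrays, against 11.83, 11.21 and 11.58 on the adequate arrays, a log2 change of -0.60 ± 0.22 (SE, limma adjusted p 0.344). In all 3 genes deficient arrays 1 and 2 lay below every adequate array, and deficient array 3 lay within 0.36 of the adequate mean. Without deficient array 3, RT1-Da, RT1-Db1 and Cd74 were the only MHC genes that limma called, 3 of 9 where 10.7% of all tested probe sets were called lower, with log2 changes of -1.51, -0.96 and -0.80 and adjusted p of 0.000878, 0.0165 and 0.0126. With deficient array 3 alone the changes were -0.36, -0.19 and -0.19 and the smallest of the adjusted p was 0.772. The median of the MHC block was -0.13 with deficient array 3 alone and -0.21 without it.

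Ciita, the master regulator of class II transcription, was too dim to test, with log2 signals between 4.79 and 6.54 for its brighter probe set. The promoters of 4 class II genes are printed so that the chains of RT1-D and RT1-B, whose signals are compared here, can be compared in sequence too. Class II promoters are read by a complex of factors that includes the CCAAT-binding factor NF-Y. RefSeq windows from 250 bases before to 50 bases after the start site (build GRCr8) were matched by symbol for 33 of the 40 genes. Ciita, Dhx58, Cd79b, Ifit2, Cd4, Mx2 and Isg15 were not matched. The motif CCAAT, searched on both strands, was present in 37.5% of 33469 RefSeq promoters, in 6 of 9 interferon genes, in 4 of 15 T and B cell genes and in 6 of 9 MHC genes: B2m, Cd74, RT1-Ba, RT1-Bb, RT1-Da and RT1-Db1. In the sequences, 5′ to 3′ on the strand of the gene, capitals mark CCAAT or its reverse complement. RT1-Da, whose CCAAT match lies 49 bases before the start, is given over the whole window at chr20:4515165-4515464 (plus strand), and the others over 70 bases, RT1-Db1 at chr20:4560208-4560277 (minus), RT1-Ba at chr20:4576979-4577048 (plus) and RT1-Bb at chr20:4604145-4604214 (minus).
RT1-Da: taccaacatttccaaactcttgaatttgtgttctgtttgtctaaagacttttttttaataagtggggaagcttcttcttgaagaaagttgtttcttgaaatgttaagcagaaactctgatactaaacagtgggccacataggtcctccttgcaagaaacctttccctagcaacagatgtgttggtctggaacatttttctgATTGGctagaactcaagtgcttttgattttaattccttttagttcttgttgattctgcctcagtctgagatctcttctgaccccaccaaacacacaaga
RT1-Db1: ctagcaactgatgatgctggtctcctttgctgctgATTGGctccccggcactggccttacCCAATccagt
RT1-Ba: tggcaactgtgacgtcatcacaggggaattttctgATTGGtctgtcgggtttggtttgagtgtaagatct
RT1-Bb: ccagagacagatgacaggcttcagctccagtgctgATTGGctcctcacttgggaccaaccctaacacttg

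The 4 class II genes thus share an ATTGG in the same orientation within 80 bases of the start site. The 70-base windows were placed on this match. RT1-Db1 and RT1-Bb also had a match in the other orientation, 55 and 172 bases before the start. How many other promoters have a match at such a place was not counted. Among 29 tested genes of a list of other MHC and antigen processing genes, the NF-Y subunit gene Nfya read 7.80, 8.16 and 7.91 on the deficient arrays, against 9.08, 8.61 and 8.72 on the adequate arrays. Its log2 change was -0.84 ± 0.21 (SE, limma adjusted p 0.344), the groups did not overlap, and the change was -0.89 with deficient array 3 alone and -0.82 without it. The genes of the other NF-Y subunits had log2 changes of 0.10 ± 0.18 for Nfyb and -0.42 ± 0.18 for Nfyc (SE, limma adjusted p 0.806 and 0.344), and both overlapped between the groups. Rfx5, Rfxap and Creb1 of the same list had log2 changes of -0.06, -0.04 and -0.67 (limma adjusted p 0.866, 0.958 and 0.425), all with overlap. Whether any of these genes bears on the class II signals was not tested. Marchf1, a ubiquitin ligase that removes class II molecules from the cell surface, read 7.12, 7.62 and 6.67 on the deficient arrays, against 6.02, 6.08 and 6.52 on the adequate arrays. Its log2 signal was under the filter level on adequate arrays 1 and 2, and its limma adjusted p was 0.344. Psme2, a proteasome activator subunit induced by interferon gamma, had a log2 change of -0.47 ± 0.18 (SE, limma adjusted p 0.344), which was -0.14 with deficient array 3 alone and -0.63 without it. At an unadjusted p under 0.05, 4 of these 29 genes were lower and 1 was higher, beside 8.18% lower and 6.03% higher of all tested probe sets, and the median log2 change was -0.32.

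The class II genes RT1-Ba and RT1-Bb, the alpha and beta chains of RT1-B, gave values that depended on the probe set, and adequate array 2 read unlike the others. The brightest probe set of RT1-Ba read 9.69, 9.42 and 9.46 on the deficient arrays, against 10.71, 9.07 and 8.98 on the adequate arrays. A second tested probe set read 7.91, 8.17 and 8.85 on the deficient arrays, against 8.31, 8.85 and 9.52 on the adequate arrays, so it was lowest where the first was highest among the adequate arrays. The 2 untested probe sets of RT1-Ba read between 4.62 and 6.81 on the deficient arrays and 4.20 to 4.80 on adequate arrays 1 and 3, but 9.06 and 9.11 on adequate array 2. RT1-Bb behaved alike. Its tested probe set read 8.81, 8.95 and 9.78 on the deficient arrays, against 9.15, 8.04 and 10.09 on the adequate arrays. Its untested probe set read 5.88, 5.17 and 5.04 on the deficient arrays, against 3.73, 8.89 and 4.87 on the adequate arrays. The dimmer probe set of RT1-Db1 was highest on adequate array 2 as well, at 7.98, against 5.78 to 6.70 on the other arrays. RT1 genes differ strongly in sequence between rats, and which alleles the probes match, and which the animals carried, is not known here; their part in these values was not tested. The 2 tested probe sets of RT1-Ba had log2 changes of -0.07 ± 0.38 and -0.58 ± 0.33 (SE), and RT1-Bb had 0.09 ± 0.44 (SE).

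**Figure D3:**
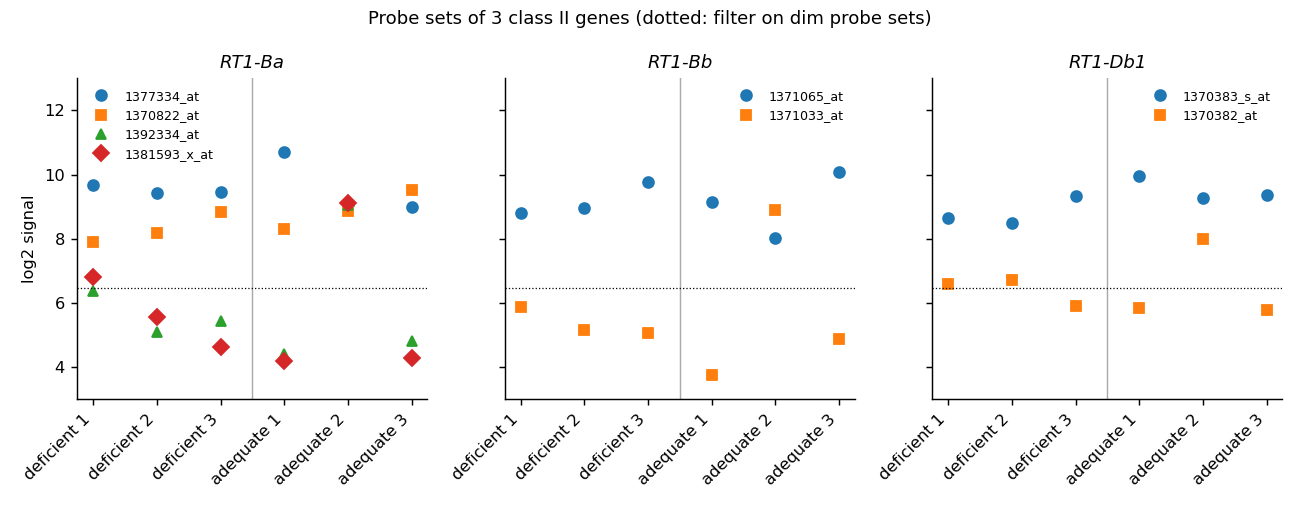
Log2 signal (y axis) of each probe set of RT1-Ba, RT1-Bb and RT1-Db1 on each array (x axis, deficient left of the grey line, adequate right); the dotted line is the filter level of 6.46. The probe sets that are dim elsewhere read 9.06 and 9.11 (RT1-Ba), 8.89 (RT1-Bb) and 7.98 (RT1-Db1) on adequate array 2, where the brightest RT1-Bb probe set is at its lowest, 8.04.

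The class I genes had small differences. B2m, the light chain of class I molecules, was the brightest of the 57 probe sets and read 13.39, 13.33 and 13.07 on the deficient arrays, against 13.11, 13.15 and 13.16 on the adequate arrays. Its log2 change of 0.12 ± 0.16 (SE, limma adjusted p 0.714) was below 0 after quantile normalization (-0.19) and with deficient array 3 alone (-0.07), and was 0.22 without that array. Its second tested probe set had -0.09 ± 0.15 (SE). Tap1, a chain of the peptide transporter, read 8.41, 7.08 and 7.22 on the deficient arrays, against 7.89, 7.71 and 7.10 on the adequate arrays. Tap2 read 6.62, 6.89 and 7.16 on the deficient arrays, against 7.72, 7.03 and 7.11 on the adequate arrays, a log2 change of -0.40 ± 0.28 (SE, limma adjusted p 0.479), which was -0.12 with deficient array 3 alone and -0.53 without it. Tapbp, which links the transporter to empty class I molecules, read 8.42, 8.20 and 8.12 on the deficient arrays, against 7.90, 8.30 and 8.26 on the adequate arrays. All 4 genes overlapped between the groups, and their deficient and adequate means differed by at most 0.40.

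In the interferon block, the brightest probe sets of Mx1, Mx2, Ifit2 and Ddx60 were highest on deficient arrays 1 and 2, and no gene had an unadjusted p under 0.05. Ddx60, a helicase that helps sense viral RNA, read 9.47, 9.38 and 6.80 on the deficient arrays, against 7.36, 7.31 and 7.31 on the adequate arrays. Its group means were 8.55 ± 1.52 in the deficient and 7.33 ± 0.03 in the adequate group (SD, n = 3 each). The log2 change was 1.22 ± 0.58 (SE, limma adjusted p 0.358). It was 2.10 without deficient array 3 (adjusted p 0.000427) and -0.53 with deficient array 3 alone, where the direction turned. Deficient array 3 was the lowest of the 6 arrays for Ddx60.

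Mx1, a GTPase that blocks viral nucleoproteins, read 7.69, 6.88 and 6.17 on the deficient arrays, against 6.26, 6.30 and 5.94 on the adequate arrays. Its adequate mean of 6.17 was under the filter level, so no fold is given, and the limma adjusted p was 0.366. Mx2, its close relative, read 7.06, 6.81 and 6.33 on the deficient arrays, against 6.41, 6.16 and 6.78 on the adequate arrays. A dimmer, untested probe set of Mx2 read 7.28, 5.92 and 3.28 on the deficient arrays, against 4.17, 4.87 and 4.43 on the adequate arrays. Mx1 and Mx2 are similar in sequence, so their signals may not be separate. Ifit2, which binds viral RNA, read 9.67, 9.72 and 8.77 on the deficient arrays, against 8.96, 8.76 and 8.92 on the adequate arrays. Its log2 change was 0.51 ± 0.25 (SE, limma adjusted p 0.364), but its second tested probe set had -0.21 ± 0.22 (SE). The first had -0.11 with deficient array 3 alone and 0.82 without it. The mean of both Ifit2 probe sets had a change of 0.15. Deficient arrays 1 and 2 exceeded the other 4 arrays for the brightest probe sets of Mx1, Mx2, Ifit2 and Ddx60. These are 4 of the 8 tested genes of the block, and the same held for 19.1% of all tested probe sets. The second Ifit2 probe set read 7.64 and 7.36 on these 2 arrays, against 7.77, 7.42 and 7.88 on the adequate arrays. Without deficient array 3, limma called Mx1, Ifit2 and Ddx60 higher at an adjusted p under 0.05, 3 of the 8 genes. In that comparison 8.75% of all tested probe sets were called higher. Mx1 and Mx2 passed the filter only through the deficient group, as their adequate means of 6.17 and 6.45 lay under it. Counts with these 2 genes are therefore not independent of the filter. The block median was 0.36 without deficient array 3, whereas with deficient array 3 alone it was -0.11.

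Most other effector and sensor genes were below the filter and showed no single order. Isg15, a ubiquitin-like protein strongly induced by interferon, read 7.64, 6.08 and 5.97 on the deficient arrays, against 5.63, 5.21 and 3.64 on the adequate arrays, higher in the deficient group without overlap. Oas1a, which makes the second messenger of RNase L, read 6.03, 6.35 and 5.50 on the deficient arrays, against 5.43, 5.75 and 5.53 on the adequate arrays. Ifit3 read 2.34, 5.46 and 4.88 on the deficient arrays, against 4.52, 4.75 and 4.64 on the adequate arrays, and the RNA sensor Ifih1 read 2.93, 5.26 and 5.35 on the deficient arrays, against 5.08, 5.01 and 5.10 on the adequate arrays. Deficient array 1, where Isg15, Mx1 and Mx2 were highest, was thus the lowest array for Ifit3 and Ifih1. The brightest probe set of Dhx58, a helicase related to Ifih1, read 6.15, 4.96 and 4.45 on the deficient arrays, against 3.96, 5.08 and 4.96 on the adequate arrays. Log2 values of such dim probe sets scatter widely, and these 5 genes were not tested.

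The transcription factors Stat2, Irf1, Irf7 and Irf9 were tested and none was higher on both deficient arrays 1 and 2 than on the other 4 arrays. Stat2, which joins Irf9 to switch on interferon-induced genes, read 8.76, 8.25 and 7.96 on the deficient arrays, against 8.91, 8.61 and 8.93 on the adequate arrays, a log2 change of -0.49 ± 0.23 (SE, limma adjusted p 0.359). Its second tested probe set had 0.00 ± 0.22 (SE), so the probe sets did not give the same answer. Irf9 read 8.61, 8.34 and 8.40 on the deficient arrays, against 8.68, 8.87 and 8.34 on the adequate arrays. Irf1, induced mainly by interferon gamma, read 8.69, 8.21 and 9.13 on the deficient arrays, against 8.96, 9.01 and 8.88 on the adequate arrays. Its log2 change of -0.27 ± 0.23 (SE, limma adjusted p 0.566) turned to 0.18 with deficient array 3 alone and was -0.50 without it. Irf7, which amplifies the type I response, read 8.29, 7.76 and 7.75 on the deficient arrays, against 7.90, 7.62 and 7.87 on the adequate arrays. With deficient array 3 alone Stat2 had a log2 change of -0.86, and without it -0.31. Stat2, like Blnk, was lowest on deficient array 3, and Irf1 was highest there.

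**Figure D4:**
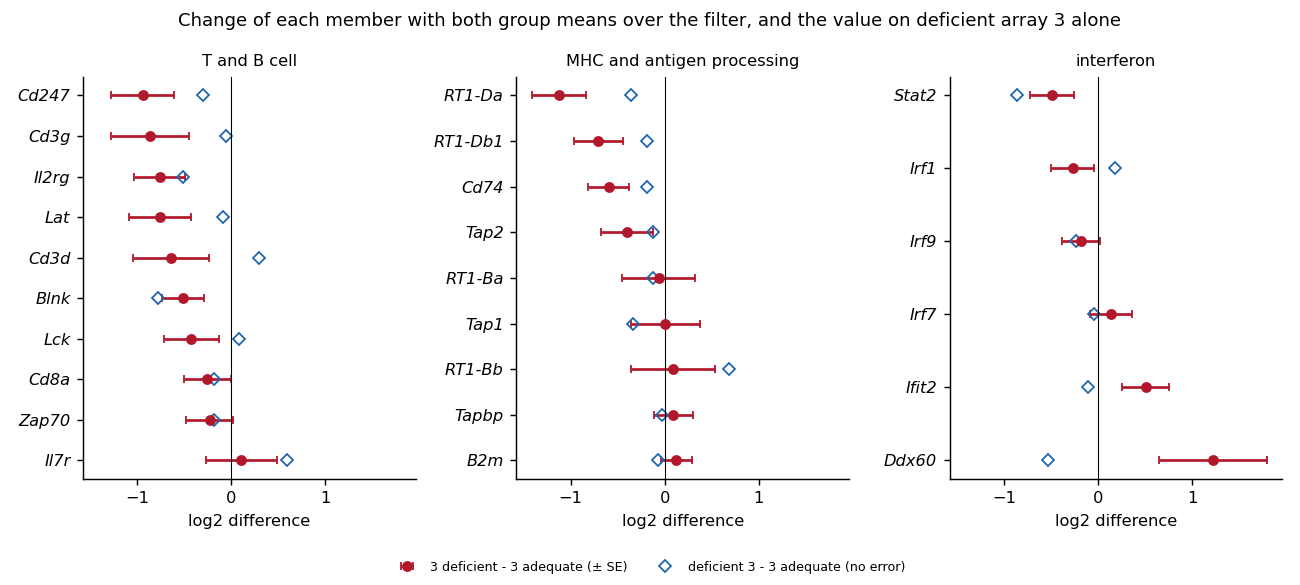
Log2 difference (x axis) for each tested gene with both group means over the filter level (y axis), in the 3 blocks: filled red points are the 3 deficient against the 3 adequate arrays with their standard error, and open blue diamonds are deficient array 3 minus the adequate mean, which has no error. For Ddx60 the red point is at 1.22 and the diamond at -0.53, and for RT1-Da they are at -1.12 and -0.36.

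Promoters of the interferon block were searched for GAAANNGAAA, the core of the interferon-stimulated response element that the Stat2-Irf9 complex and other interferon regulatory factors bind, on both strands. It was present in 3.92% of the 33469 promoters, in 5 of 9 interferon genes, in 4 of 9 MHC genes and in 0 of 15 T and B cell genes with a promoter in the table. Matches of different motifs did not overlap in these promoters. A match describes letters only and shows no binding. The whole window is given for Ddx60, the tested gene with the largest change in the block, at chr16:33208790-33209089 (minus strand). Its matches lie 73 and 39 bases before the start. For the other genes 40 bases around the match are given so that the cores can be compared, with capitals on the match in either orientation. They lie at chr1:205800068-205800107 (minus) for Irf7, chr1:241527267-241527306 (plus) for Ifit3, chr3:67684003-67684042 (minus) for Ifih1, chr12:41330410-41330449 (plus) for Oas1a and chr3:129549165-129549204 (plus) for B2m. Those of the peptide loading genes lie at chr20:4668640-4668679 (minus) for Tap1, chr20:4652313-4652352 (minus) for Tap2 and chr20:4967879-4967918 (minus) for Tapbp.
Ddx60: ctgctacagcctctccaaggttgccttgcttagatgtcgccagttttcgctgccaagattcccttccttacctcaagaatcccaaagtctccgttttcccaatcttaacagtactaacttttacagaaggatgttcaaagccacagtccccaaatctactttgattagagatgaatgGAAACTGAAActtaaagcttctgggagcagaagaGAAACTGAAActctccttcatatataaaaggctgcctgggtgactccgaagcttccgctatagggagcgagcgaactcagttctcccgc
Irf7: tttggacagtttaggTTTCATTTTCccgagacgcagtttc
Ifit3: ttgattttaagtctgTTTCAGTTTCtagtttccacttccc
Ifih1: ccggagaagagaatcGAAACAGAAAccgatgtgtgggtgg
Oas1a: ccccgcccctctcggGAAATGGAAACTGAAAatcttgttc
B2m: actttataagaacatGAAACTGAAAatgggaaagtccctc
Tap1: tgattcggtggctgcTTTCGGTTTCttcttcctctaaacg
Tap2: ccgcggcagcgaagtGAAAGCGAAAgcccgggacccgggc
Tapbp: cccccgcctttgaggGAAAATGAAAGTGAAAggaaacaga

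The 9 genes that carry this core did not all have the same order of arrays. The brightest probe sets of Ddx60, B2m and the untested Oas1a were higher on deficient arrays 1 and 2 than on the other 4 arrays. The second B2m probe set was not. Irf7, Tap1 and Tapbp had no such order, and Tap2 had its lowest values on deficient arrays 1 and 2. The untested Ifit3 and Ifih1 were lowest on deficient array 1. All 9 genes overlapped between the groups. Mx1, high on deficient arrays 1 and 2, had no match in its window. The core appeared 2 times in Ddx60, and as overlapping pairs in Oas1a and Tapbp.

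A list of other interferon pathway genes held 88 genes, of which 57 were tested, with a median log2 change of -0.11. At an unadjusted p under 0.05, 3 of 57 were lower and 3 were higher, where 8.18% of all tested probe sets were lower and 6.03% higher, so both shares were below those of all probe sets. Irf8 is a transcription factor of macrophages, dendritic cells and B cells. It read 8.65, 8.91 and 9.17 on the deficient arrays, against 9.95, 9.72 and 9.70 on the adequate arrays. Its log2 change was -0.88 ± 0.18 (SE, limma adjusted p 0.344). Herc6, a ligase gene induced by interferon, read 8.29, 7.72 and 7.40 on the deficient arrays, against 7.27, 6.99 and 6.97 on the adequate arrays, a log2 change of 0.73 ± 0.27 (SE, limma adjusted p 0.344). Trim25, which activates the viral RNA sensor RIG-I, read 10.15, 10.05 and 9.94 on the deficient arrays, against 9.40, 9.57 and 9.86 on the adequate arrays, a log2 change of 0.44 ± 0.17 (SE, limma adjusted p 0.344). These 3 genes had the smallest unadjusted p of the 57, and their groups did not overlap. Without overlap, 3 of the 57 were lower and 5 were higher, where 10.8% and 6.55% of all tested probe sets were. With deficient array 3 alone the changes of Irf8, Herc6 and Trim25 were -0.62, 0.33 and 0.33. Without it they were -1.003, 0.93 and 0.49. Of the 57 genes, 10 were higher and 15 were lower on both deficient arrays 1 and 2 than on the other 4 arrays, close to the 19.1% and 26.0% of all tested probe sets. The effector genes Ifi44, Ifi44l, Herc6 and Cmpk2 were among the first, and Ifitm1, Ifitm2, Ifitm3, Bst2 and Lgals3bp, also induced by interferon, were among the second; these 9 were picked after their values were seen.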

How the data were processed

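Total RNA of 6 samples was measured on Affymetrix rat genome-wide 3' expression arrays. The deposited values are linear intensity signals per probe set. MAS5 and Affymetrix Expression Console are named, without versions, per the submitters' processing notes. The values show a 2% trimmed mean of 500.1 or 500.2 on each array, while the background settings and detection calls are not stated. Such signals scatter more on the log scale the dimmer the probe set. With 3 arrays a group, the number of arrays limits the precision.

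Groups came from the sample titles. After leaving out 57 control probe sets, 31042 signals were log2 transformed without an offset, and the 18625 with a mean at or above the 40th percentile (6.46) were fitted with limma 3.58.1 in R 4.3.3 (eBayes with a variance trend, two-sided, Benjamini-Hochberg adjustment). The fit was tested on simulated data in which each probe set varied on its own. It called 92% of log2 changes of 2, 36% of log2 changes of 1 and 0.038% of unchanged probe sets. The annotation gave 1 symbol to 20826 probe sets, several to 436 and none to 9780, and an Entrez match to RefSeq (GRCr8) covered 20758 and changed 0 symbols. Members, gene lists and tests were chosen with earlier results of these data known. All 28 tested members are given on every array, with the fit for the 5 of smallest unadjusted p in each block, and 3 genes from each list of other genes. Probe sets with a group mean under the filter get no fold or log2 change of their own, though block medians and counts of genes include them. Figures were drawn with matplotlib 3.10.9.

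Alternatives covered normalization, filters, an offset of 50, a floor, the variance model, array weights, a replicate block, left-out arrays, 2 covariates and other probe set rules. Same-numbered arrays did not deviate together in every pair, with correlations of 0.107, 0.153 and 0.00655.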

Additional observations from a re-analysis of the deposited data

How the results depend on the processing

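The count of probe sets past the adjusted threshold was 0 under 12 alternatives (scaling, filters, offset, floor, variance model, replicate block, both covariates, and without deficient arrays 1 and 2) and 3462 with array weights. Leaving out 1 array gave counts from 0 to 3614, the highest without deficient array 3. With array weights, 6 of 11 T and B cell genes and 3 of 9 MHC genes were called lower. The share of all tested probe sets called lower was 10.4%. Of the 8 interferon genes 2 were called higher, beside 8.14% of all tested probe sets. The T and B cell median of -0.64 was -0.18 without deficient arrays 1 and 2 and -0.12 with the hybridisation covariate, and ranged from -0.93 (without adequate array 2) to -0.48 (without deficient array 2) with 1 array left out; with array weights it was -1.02. The MHC median of -0.07 was -0.40 with array weights and -0.32 when all probe sets of a gene were averaged, and ranged from -0.44 (without adequate array 2) to -0.013 (without deficient array 2) with 1 array left out. The interferon median of 0.21 reversed to -0.22 with the filter at the 60th percentile, which left 4 genes, to -0.11 without deficient arrays 1 and 2 and to -0.058 with the hybridisation covariate, was 0.00027 over every tested probe set and 0.17 with dim values raised to the filter level, and lay between 0.038 and 0.36 with 1 array left out, at these ends without deficient array 1 and without deficient array 3. Among named genes, without deficient arrays 1 and 2 and with the hybridisation covariate, the log2 changes turned to -0.53 and -0.38 for Ddx60, -0.11 and -0.044 for Ifit2, 0.18 and 0.18 for Irf1, and -0.073 and -0.060 for B2m, which was also -0.19 after quantile normalization. The cause was not tested. The hybridisation controls read 11.60 and 12.09 in log2 signal on deficient arrays 1 and 2, against 8.35 to 8.99 on the other arrays. The covariate thus largely sets the same 2 arrays apart, and these 2 settings are not separate checks. With the beta-actin ratio as a covariate the medians were -0.25, -0.18 and 0.13 and no named gene reversed. Where an array was alone in its group it was assumed to vary like the others. The labels share replicate numbers only: with the number as a block 0 probe sets passed (smallest adjusted p 0.235), and 5 of 6 arrays correlated best with their own number. Signal over background limits the dim genes: 9 of the 37 genes stayed under the filter.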
